A study of Mus musculus with 16 samples.

Results

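Gluconeogenesis, the route by which the liver makes glucose from lactate, glycerol and amino acids, was described here through 8 genes chosen by name: the enzymes Pck1, Pck2, Fbp1 and G6pc, the glucose-6-phosphate transporter Slc37a4, and the regulators Ppargc1a, Creb3l3 and Crtc2. All 8 were among the 46078 genes of the count table, and all 8 passed the filter on low counts that left 15075 genes for testing. Liver RNA was sequenced from mice of the strain labelled C56B6/J (the authors' methods list C57BL6/J). They were aged 8 weeks when put on either the control diet (CD) or an HFD, a high-fat diet with 60% of energy from fat, and kept there for 16 weeks. Livers were taken from mice with free access to food (fed) or after a 16 h fast, with 4 libraries in each of the 4 groups: CD fed, CD fasted, HFD fed and HFD fasted. The labels name no genetic change, the tissue was whole liver, and they number the samples without naming the animals, so p-values measure the spread between these samples.

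Most steps of gluconeogenesis run glycolysis backwards, and a few irreversible steps need enzymes of their own. Phosphoenolpyruvate carboxykinase (cytosolic Pck1, mitochondrial Pck2) makes phosphoenolpyruvate from oxaloacetate, fructose-1,6-bisphosphatase (Fbp1) undoes the phosphofructokinase step, and the catalytic subunit of glucose-6-phosphatase (G6pc) frees glucose from glucose-6-phosphate that Slc37a4 carries into the endoplasmic reticulum. In fasting, glucagon raises cyclic AMP and activates CREB with its coactivator Crtc2, insulin falls and FOXO1 enters the nucleus, and the coactivator Ppargc1a (PGC-1α) is induced. In GRCm38 the genes lie on chromosomes 2 (Pck1, 173153048 to 173159273), 14 (Pck2), 13 (Fbp1), 11 (G6pc, 101367561 to 101377903), 9 (Slc37a4), 5 (Ppargc1a, 51454250 to 51567726), 10 (Creb3l3) and 3 (Crtc2). Creb3l3 (CREB-H) is a liver transcription factor released from the endoplasmic reticulum membrane, with targets in lipid and glucose metabolism.

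Upstream sequences are shown for the members that moved most between groups, Pck1, G6pc and Ppargc1a. They are the RefSeq promoter windows of GRCm38.p6, starting 250 bases before the transcription start and ending at the first base that the annotation places in an exon, and capitals mark the CRE core (TGACG or CGTCA) or the CCAAT box (CCAAT or ATTGG). The Pck1 stretch lies at chr2:173152823-173153047 on the plus strand, the G6pc stretch at chr11:101367466-101367560 on the plus strand and the Ppargc1a stretch at chr5:51567727-51567975 on the minus strand.
Pck1: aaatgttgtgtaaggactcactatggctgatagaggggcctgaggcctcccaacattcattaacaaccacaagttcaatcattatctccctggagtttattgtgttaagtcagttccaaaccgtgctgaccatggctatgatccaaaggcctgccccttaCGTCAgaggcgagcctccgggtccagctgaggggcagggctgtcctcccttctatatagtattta
G6pc: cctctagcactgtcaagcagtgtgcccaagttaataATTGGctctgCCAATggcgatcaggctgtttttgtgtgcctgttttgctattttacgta
Ppargc1a: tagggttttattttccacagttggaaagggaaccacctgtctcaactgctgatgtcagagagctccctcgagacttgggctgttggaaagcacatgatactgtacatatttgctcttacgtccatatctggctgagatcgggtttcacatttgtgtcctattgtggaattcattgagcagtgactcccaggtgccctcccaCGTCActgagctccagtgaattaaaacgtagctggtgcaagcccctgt
The CRE core begins 90 bases before the start of Pck1 and 49 bases before that of Ppargc1a. The table holds 10 windows for 7 members (all but Crtc2), with 3 for Slc37a4, which overlap in part, and 2 for Creb3l3. A CRE core on either strand within 250 bases stood in 5 of the 10 windows (Pck1, Ppargc1a, Creb3l3 and 2 of Slc37a4), beside 17.8% of all 32851 windows of that length. The same TGACG site is counted in both of these Slc37a4 windows. Unlike those shown above, the CRE cores of Slc37a4 and Creb3l3 lie past the first base that the annotation places in an exon. A CCAAT box stood in 4 of the 10 (G6pc, Fbp1, Pck2 and Creb3l3, where it also lies past that base), close to the 33.8% of all windows. The full palindrome TGACGTCA, which contains this core, and the FOXO core GTAAACA were in none of the 10, and stood in 1.55% and 3.17% of all windows. A match describes letters in this window only.

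Levels of the members were compared per length of the principal transcript, as FPKM, the TMM-scaled level per kilobase of transcript. In CD fed livers Pck1 was highest at 1271 FPKM, followed by Fbp1 at 632, G6pc at 281, Creb3l3 at 158, Slc37a4 at 81.4, Crtc2 at 12.1, Ppargc1a at 1.65 and Pck2 at 1.04 FPKM. The libraries of neighbours in this order overlapped only for G6pc with Creb3l3 and for Ppargc1a with Pck2. In HFD fasted livers Pck1 averaged 762 FPKM and Fbp1 658 FPKM, and their libraries overlapped, as did those of G6pc and Slc37a4, at 67.9 and 67.2 FPKM. The cytosolic carboxykinase exceeded the mitochondrial one in every library, with a per-length ratio of 686 in HFD fasted and 2539 in CD fasted livers at the group means.

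**Figure D1:**
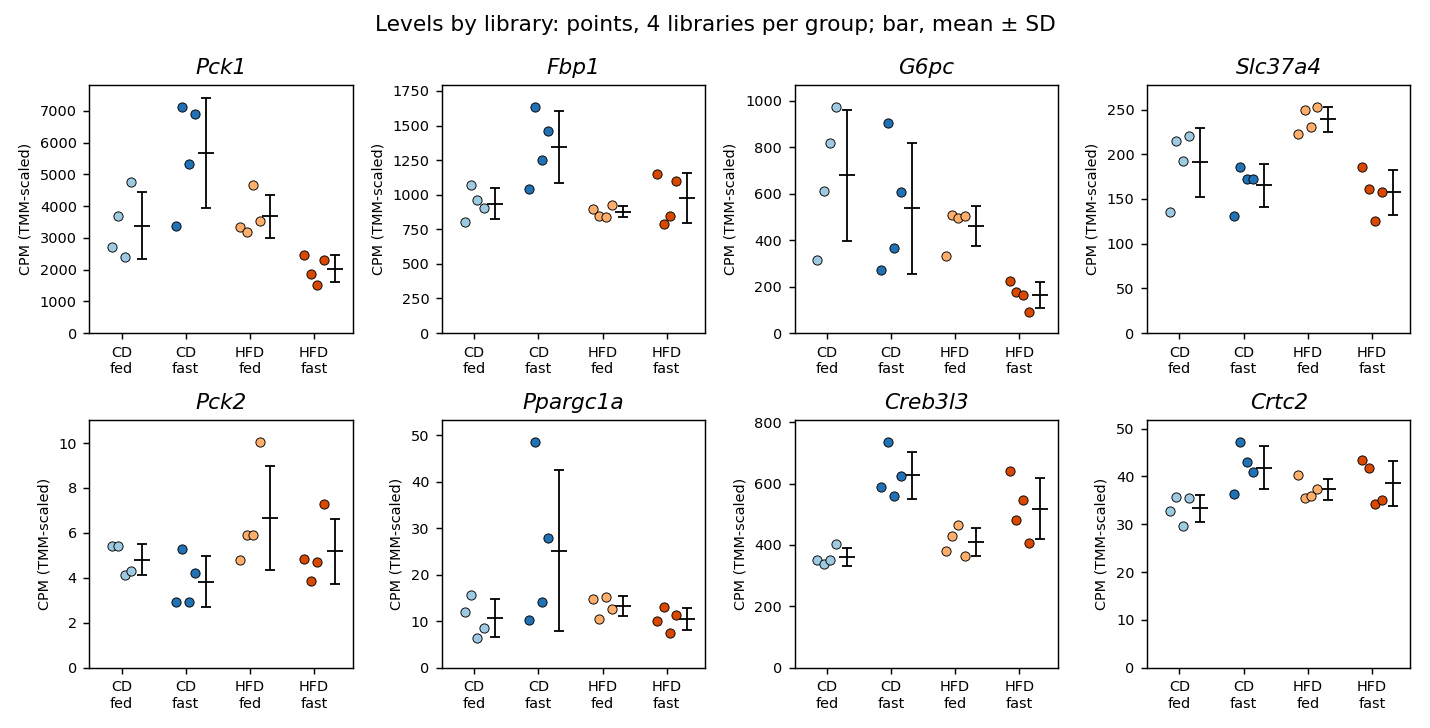
CPM (the count relative to the TMM-scaled library total) of the 8 genes in each of the 16 libraries, with the mean ± SD beside each group of 4; each panel has its own axis from 0. Pck1 in the HFD fasted libraries lies between 1503 and 2459 CPM, below all 4 CD fasted libraries, and Ppargc1a has 1 CD fasted library at 48.5 CPM.

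The first comparison was fasting in mice on the control diet. Pck1, Fbp1, Ppargc1a, Creb3l3 and Crtc2 rose, none of the 8 fell, and G6pc, Slc37a4 and Pck2 did not pass the test. The 5 rises compare with 25.2% of all tested genes called in this contrast, 13.7% higher and 11.5% lower, and the median log2 change of the 8 members was 0.43 against -0.01 for all genes. The changes ranged from a log2 of 0.33 for Crtc2 to 1.24 for Ppargc1a.

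Pck1, the enzyme whose amount is set mostly by transcription, had 2703.5, 3692, 2388 and 4747 CPM in the CD fed libraries and 3369, 7106, 5316 and 6915 CPM in the CD fasted ones. The lowest fasted library lay within the fed range, and the other 3 above it. The log2 fold change was 0.75 (SE 0.25), 1.68-fold higher, with an adjusted p of 0.0416. Fbp1 had 800, 1071, 964 and 907 CPM fed and 1038, 1631, 1248 and 1463 CPM fasted, with overlap of a single library of each group, and its log2 change was 0.52 (SE 0.15, adjusted p = 0.0184). The Pck1 call was lost in 7 of 16 fits that left out 1 library (CD fed replicates 1, 2 and 3, CD fasted replicates 2, 3 and 4, and HFD fed replicate 1), with an adjusted p of up to 0.119 without the second CD fasted library, and also under total count scaling, with no count filter and with only the 8 CD libraries in the fit. The Fbp1 call was lost in 2, without the second CD fasted (adjusted p = 0.0640) or the first CD fed library.

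Ppargc1a was the most uneven member among the CD fasted libraries, with a coefficient of variation of 68.6%, but not in the other 3 groups. It had 12.01, 15.7, 6.30 and 8.57 CPM in the fed libraries and 10.2, 48.5, 14.2 and 27.8 CPM in the fasted ones, so that 2 of the fasted libraries lay above the fed range and 2 within it. The log2 change was 1.24 (SE 0.39, adjusted p = 0.0287), and without the second CD fasted library it was 0.71 (adjusted p = 0.141). The call was also lost without CD fed replicate 3 or 4 or CD fasted replicate 4, by limma-voom, and with only the 8 CD libraries in the fit (adjusted p = 0.0819 at most in those last 2). The second CD fasted library also had the highest level of Igfbp1, an insulin-repressed gene for a growth factor binding protein, at 616 CPM against 38.0 to 117 CPM in the other 3 CD fasted libraries. The part of these levels in the members' rises was not tested.

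Creb3l3 had the smallest p of the members. Its fed libraries held 351, 339, 352 and 404 CPM and its fasted libraries 588, 735, 559 and 626 CPM, with no overlap and little spread within groups. The log2 change was 0.79 (SE 0.13, adjusted p = 0.000603), 1.73-fold higher, and the call held in all 16 fits that left out 1 library. Crtc2 rose less, from 33.4 ± 2.82 to 41.8 ± 4.51 CPM (SD, n = 4), also without overlap (log2 0.33, SE 0.10, adjusted p = 0.0225), and its call was lost without CD fasted replicate 2 (adjusted p = 0.0750) or without CD fed replicate 1 or 3.

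The last step of the pathway did not follow. G6pc had 315, 609, 817 and 971 CPM fed and 271, 904, 365 and 607 CPM fasted, a log2 change of -0.34 with a 95% interval from -1.13 to 0.46. Slc37a4, its partner in glucose release, had a log2 change of -0.21 (interval -0.53 to 0.11), and Pck2 one of -0.33 (interval -0.86 to 0.21). When a library was left out, the change of G6pc ranged from -0.71 (without the second CD fasted library) to -0.11 (without the fourth CD fed one). It ranged from -0.34 to -0.11 for Slc37a4 and from -0.52 to -0.22 for Pck2. The groups overlapped for all 3 genes, and the intervals do not show that they were level.

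Leaving out the second CD fasted library reduced the members called from 5 to 1 (Creb3l3), and leaving out the first or the third CD fed library reduced them to 2. With only the 8 CD libraries in the fit 3 were called, and Pck1 and Ppargc1a were not.

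The second comparison was the same fast in mice on the high-fat diet. Pck1, G6pc and Slc37a4 fell, no member rose, and the members' median log2 change was -0.36 against 0.01 for all genes. The 3 falls compare with 8.86% of all tested genes called, 4.78% higher and 4.07% lower. The libraries of the 2 feeding states did not overlap for any of the 3.

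Pck1 had 3339.8, 3183, 4659 and 3518 CPM in the HFD fed libraries and 2459, 1848, 1503 and 2300.3 CPM in the HFD fasted ones, 1.81-fold lower (log2 -0.86, SE 0.25, adjusted p = 0.0467). G6pc had 331, 509, 495 and 502 CPM fed and 224, 175, 166 and 91.0 CPM fasted, 2.80-fold lower (log2 -1.49, SE 0.38, adjusted p = 0.0259). Slc37a4 had 223, 249, 231 and 252 CPM fed and 186, 161, 125 and 158 CPM fasted (log2 -0.60, SE 0.15, adjusted p = 0.0237). Every fasted library was thus below every fed one for the carboxykinase, the phosphatase and its transporter.

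Of the other members on this diet, Creb3l3 had a log2 change of 0.34 (SE 0.13) and an unadjusted p of 0.0214, but an adjusted p of 0.122. It was called higher without the fourth HFD fasted library (0.43, adjusted p = 0.0480) and was 0.22 without the first. Fbp1 had 0.15 (interval -0.16 to 0.47), Ppargc1a -0.35 (interval -1.17 to 0.47), Crtc2 0.05 (interval -0.16 to 0.25) and Pck2 -0.37 (interval -0.89 to 0.16). Ppargc1a had 10.5 to 15.2 CPM fed and 7.38 to 13.1 CPM fasted, with none of the high values seen in CD fasted livers. Hepatocyte markers (6 genes, among them Alb, Ttr and Apoa1) summed to 116550 to 147100 CPM in the HFD fed and 77757 to 107870 CPM in the HFD fasted libraries, and their part in these falls was not tested. No member was called without the second HFD fed or the third HFD fasted library, and 1 was called without the first or the third HFD fed library. The Pck1 call was lost in 10 of 16 such fits, and under total count scaling, upper quartile scaling and with no count filter, where the adjusted p was at most 0.0569. Without the third HFD fasted library the adjusted p was 0.131 for Pck1, 0.0652 for G6pc and 0.0748 for Slc37a4, which lost their calls in 4 and 3 of the 16 fits.

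The effect of diet was then compared within each feeding state. In fed mice none of the 8 members was called by edgeR, DESeq2 or limma-voom, beside 7.50% of all tested genes (3.28% higher, 4.22% lower). At an unadjusted p under 0.05 there was 1 of the 8, beside 3449 of all 15075 tested genes. This was Slc37a4, with no overlap between the diets, 136 to 220 CPM on CD and 223 to 252 CPM on HFD (log2 0.32, SE 0.15, adjusted p = 0.212). The intervals were narrow for Fbp1 (-0.41 to 0.22) and wide for G6pc (-1.36 to 0.23) and Ppargc1a (-0.50 to 1.14).

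In fasted mice Pck1 and G6pc were lower on HFD, no member was higher, and 7.70% of all tested genes were called (3.05% higher, 4.65% lower). Pck1 was 2.80-fold lower (log2 -1.49, SE 0.26, adjusted p = 0.00608), with its highest HFD library at 2459 CPM and its lowest CD library at 3369 CPM. This call held in all 16 fits without a library and in every alternative fit. G6pc was 3.27-fold lower (log2 -1.71, SE 0.38, adjusted p = 0.0157), from 271 to 904 CPM on CD and from 91.0 to 224 CPM on HFD, and lost its call where only the 8 fasted libraries were fitted (adjusted p = 0.0634).

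Ppargc1a and Fbp1 were close to the threshold in the fasted state. Ppargc1a had a log2 change of -1.27 (SE 0.39, adjusted p = 0.0575), which was -0.74 without the second CD fasted library, and Fbp1 one of -0.47 (SE 0.15, adjusted p = 0.0660). DESeq2 called both, as did the edgeR fit without the first CD fasted library. Creb3l3 (-0.27, adjusted p = 0.199), Crtc2 (-0.12), Slc37a4 (-0.07) and Pck2 (0.43) had smaller or opposite values and overlapping libraries, and scaling by total counts, which moved the median of all genes by 0.16, from 0.01 to 0.17, turned the signs of Slc37a4 and Crtc2.

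**Figure D2:**
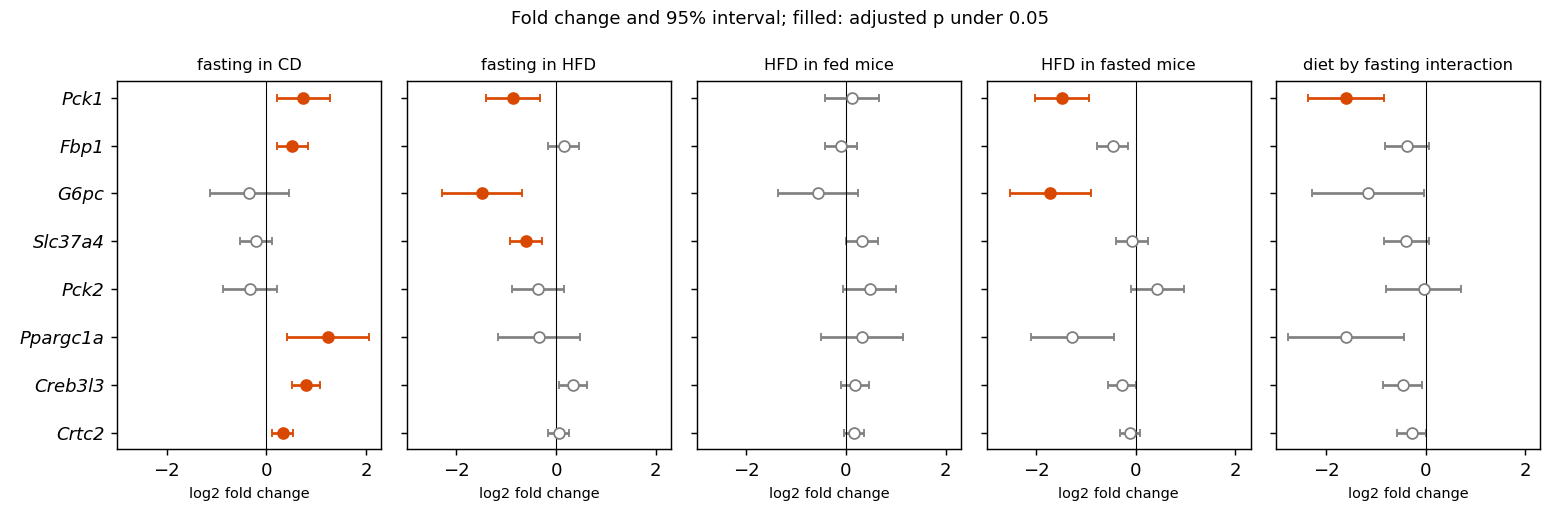
Log2 fold change of each gene with its 95% interval in the 4 pairwise contrasts and the interaction; filled points have an adjusted p under 0.05. Pck1 moves by 0.75 with fasting on CD and by -0.86 on HFD, and its interaction of -1.61 is the only filled point of the last panel.

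Whether fasting acted differently on the diets was tested by the interaction. Pck1 passed, with a difference between its 2 fasting changes of -1.61 on the log2 scale (SE 0.36, adjusted p = 0.0296), against 2.59% of all tested genes called (1.23% higher, 1.36% lower). The fasting change of Pck1 was thus positive on CD and negative on HFD. It was called in each of the 8 alternative fits at this threshold, though 7 of the 16 fits without a library took its adjusted p over the threshold, to at most 0.0666 without the third HFD fed library. The estimates of all 8 members were negative, from -0.04 for Pck2 to -1.61, but for the other 7 the adjusted p was 0.123 or more. They were -1.59 (SE 0.55) for Ppargc1a, -1.15 (SE 0.53) for G6pc and -0.46 (SE 0.19) for Creb3l3, and DESeq2 also called Ppargc1a. The CD fasted group enters both fasting in CD and HFD in fasted mice, so these are not separate measurements of it.

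The irreversible steps were next set against the glycolytic enzymes that oppose them, as count ratios within a library, which do not depend on library scaling. Across 16 tests none passed adjustment, and the smallest adjusted p was 0.0762, reached with the smallest exact two-sided permutation p that 4 against 4 libraries can give, 0.0286. The log2 ratio of Pck1 to Pklr, the pyruvate kinase of liver, was 2.81 ± 0.826 in CD fed and 6.10 ± 0.538 in CD fasted livers (SD, n = 4), a difference of 3.30 without overlap (adjusted p = 0.0762), and 4.01 ± 0.508 and 4.17 ± 0.581 in HFD fed and fasted livers. On HFD the fed and fasted libraries overlapped, and a difference of 0.16 was found (exact p = 0.686).

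The ratio of Fbp1 to Pfkl, the liver phosphofructokinase, differed by 0.70 between CD fed and fasted libraries without overlap and by 0.11 on HFD (exact p = 0.600). For Pck1 to Pck2 the log2 ratio averaged 9.41 in CD fed, 10.5 in CD fasted and 8.62 in HFD fasted libraries, and neither the fasting difference of 1.10 on CD nor the diet difference of -1.89 in fasted mice passed adjustment (exact test, adjusted p = 0.0762 for both), although the libraries did not overlap.

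**Figure D3:**
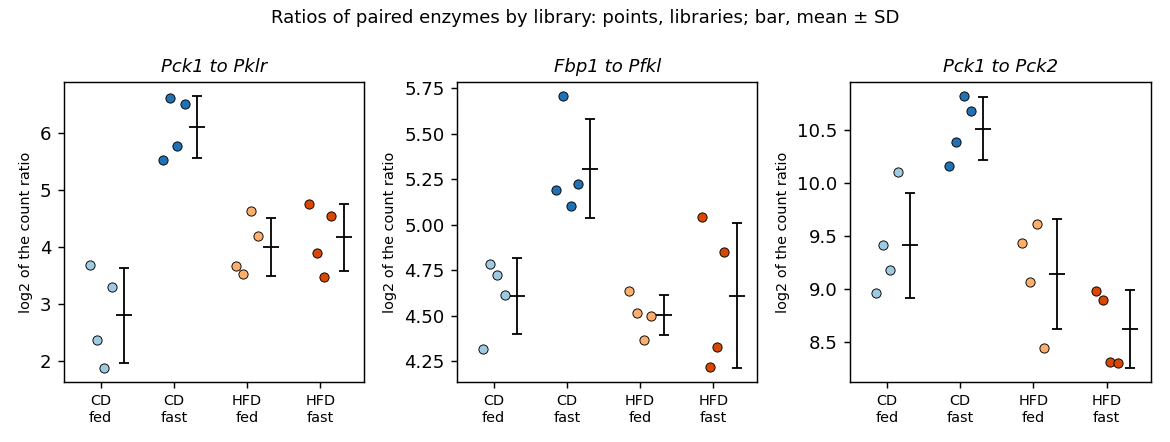
Log2 count ratio of each paired enzyme in each library, with the mean ± SD beside the 4 libraries of a group. The Pck1 to Pklr ratio of CD fasted libraries, 5.53 to 6.61, lies above all other groups, while the HFD groups overlap in every panel.

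The opposing glycolytic genes themselves fell with fasting on CD in 4 of 5 cases, beside 11.5% of all genes called lower. Pklr fell by 2.69 on the log2 scale (SE 0.29, adjusted p = 2.33e-05), Pfkfb1, the bifunctional enzyme that sets fructose-2,6-bisphosphate, fell by 0.72 and Gckr, a regulatory protein of liver, fell by 0.51, whereas Pfkl had -0.18 (adjusted p = 0.190). On HFD only Pklr of the 5 passed, at -1.03 (SE 0.28, adjusted p = 0.0307), beside 4.07% of all genes called lower. The difference between the diets passed for Pklr (1.65, SE 0.39, adjusted p = 0.0369), beside 2.59% of all genes called. In fed mice Pklr was lower on HFD (-1.16, adjusted p = 0.0198), beside 4.22% of all genes called lower. In fits without a library these calls were lost in 4, 12 and 4 of 16, in that order.

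Enzymes and carriers that bring carbon into the pathway were higher with fasting on CD in 10 of 17 cases, with none lower and a list median of 0.48, beside 13.7% higher and 11.5% lower of all genes. Glycerol kinase Gk rose by 1.51 (SE 0.14, adjusted p = 5.78e-06), lactate dehydrogenase Ldha by 1.05 (SE 0.16), pyruvate carboxylase Pcx by 0.94 (SE 0.14) and the alanine aminotransferase Gpt2 by 0.86 (SE 0.17). Those 4 calls held without any 1 library. On HFD 4 were higher and 2 lower, with a median of 0.11, beside 4.78% and 4.07% of all genes. Gk (0.78), Pcx (0.58), Ldha (0.63) and the glycerol channel Aqp9 (0.45, adjusted p = 0.0396) rose. The amino acid catabolic enzymes Sds (-1.49, adjusted p = 0.0158) and Tat (-1.35, adjusted p = 0.0437, and 0.150 without the third HFD fed library) fell. The calls of Pcx, Ldha, Aqp9 and Tat were lost in 3, 4, 8 and 10 of 16 fits without a library.

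In fasted mice 3 of the 17 were lower on HFD and none was higher, beside 4.65% and 3.05% of all genes: Tat (-1.92, SE 0.40), the ornithine carrier Slc25a15 (-0.85, SE 0.18) and the aspartate aminotransferase Got1 (-2.01, SE 0.48). All 3 lost their calls where only the 8 fasted libraries were fitted, and Got1 also in 2 fits without a library, with an adjusted p of up to 0.0618 without the second CD fasted one. In fed mice none of the 17 was called, beside 7.50% of all genes. At an unadjusted p under 0.05 there were 5, beside 3449 of all 15075 tested genes. Sds had an interaction of -1.96 (adjusted p = 0.0407). Pck1, Tat and Sds thus fell with fasting on HFD, and Gk, Pcx and Ldha rose there. Among the 7 enzymes shared with glycolysis, 1 rose with fasting on CD (Tpi1, 0.44) and 4 were lower on HFD in fasted mice, among them Tpi1 (-0.48), Gapdh (-0.46) and Pgk1 (-0.31), where 13.7% of all genes were called higher and 4.65% lower in those contrasts. In fed mice 1 of the 7 was lower on HFD, Pgk1 (-0.30, adjusted p = 0.0380), beside 4.22% of all genes, and that call was lost in 7 of 16 fits without a library. In fasted mice Gapdh and Pgk1 lost their calls when libraries were scaled by total counts.

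**Figure D4:**
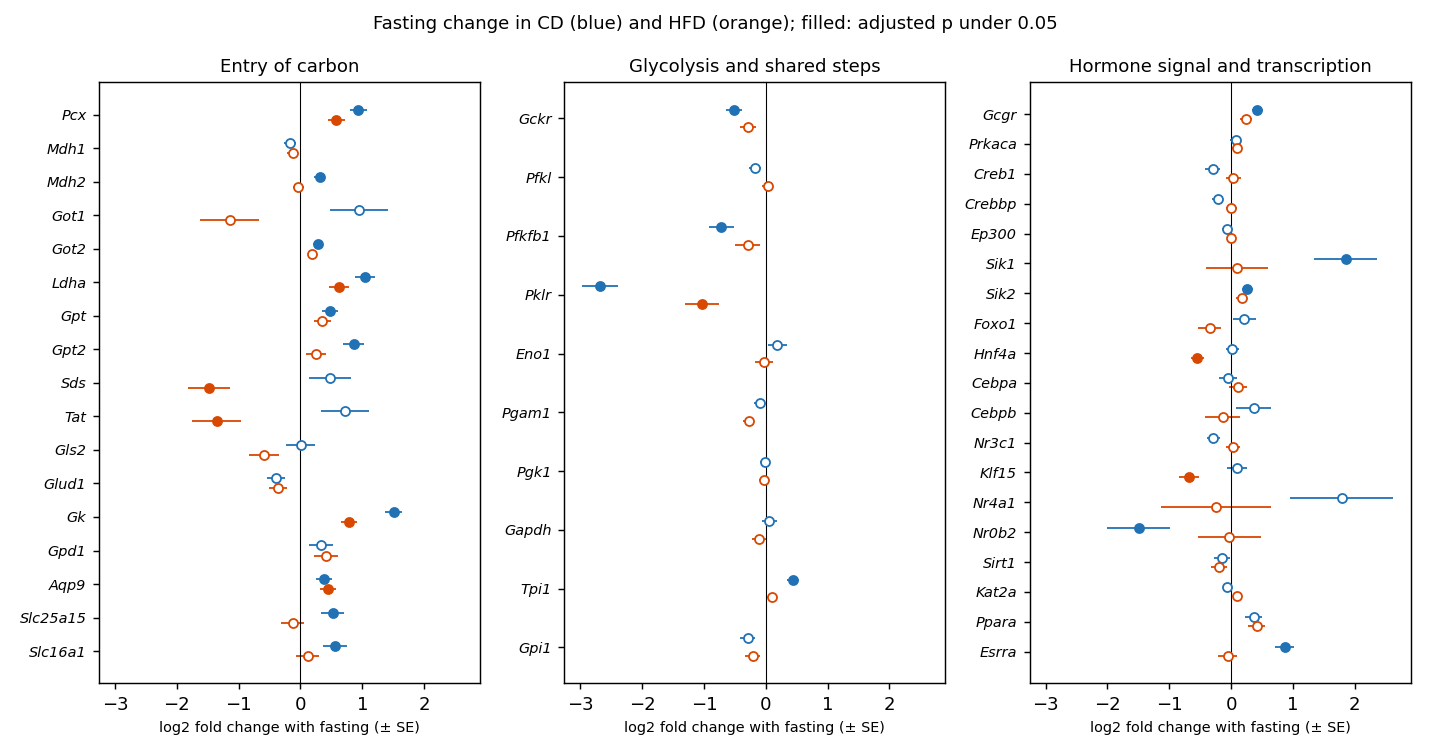
Log2 change with fasting (± SE) on CD in blue and on HFD in orange for the genes of carbon entry, glycolysis and shared steps, and hormone signal and transcription; filled points have an adjusted p under 0.05. Gk, Pcx and Ldha are filled on the right of 0 for both diets, while Sds and Tat are filled on the left for HFD only.

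Of 19 genes of the hormone signal and of transcription control, 4 rose and 1 fell with fasting on CD, a share of 26.3% called that is near the 25.2% of all genes. The nuclear receptor Esrra, a partner of PGC-1α, rose by 0.87 (SE 0.16, adjusted p = 0.00117), the glucagon receptor Gcgr by 0.42 (SE 0.09, adjusted p = 0.00437) and Sik1 and Sik2, kinases that hold CRTC proteins in the cytosol, by 1.85 and 0.26, and the corepressor Nr0b2 fell by 1.50. Sik1 was 1.21 without the fourth CD fasted library (adjusted p = 0.0732), and Nr0b2 was -2.27 without the first and lost its call in 11 of 16 fits. Sik1, like Ppargc1a, was uneven among CD fasted livers, at 54.5 ± 44.9 CPM (SD, n = 4). On HFD none rose and 2 fell, 10.5% beside 8.86% of all genes, Hnf4a (-0.55, SE 0.10, adjusted p = 0.00601) and Klf15 (-0.68, SE 0.16, adjusted p = 0.0200), both activators of gluconeogenic genes. In fasted mice 2 were lower on HFD, 10.5% beside 7.70% of all genes, Klf15 (-0.72) and the immediate early gene Nr4a1 (-3.11). The Klf15 call was lost in 2 of 16 fits without a library and where only the 8 fasted libraries were fitted. Without the fourth CD fasted library the value of Nr4a1 was -1.20 (adjusted p = 0.250), and its call was lost in 11 of 16 such fits. In fed mice none of the 19 was called, beside 7.50% of all genes. At an unadjusted p under 0.05 there were 5, beside 3449 of all 15075 tested genes. The interaction passed for Esrra (-0.92, adjusted p = 0.0401). Foxo1 was called in none of the 5, with values from -0.56 to 0.48.

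Close paralogues of the members did not share one pattern, and 13 of 14 passed the filter (G6pc2 did not). With fasting on CD 4 rose and 1 fell, 38.5% of those tested beside 25.2% of all genes. Fbp2, the muscle fructose-1,6-bisphosphatase, rose by 3.26 (SE 0.41), but from 0.114 to only 1.12 CPM. G6pc3, the widely expressed phosphatase subunit, rose by 0.61 on CD and by 0.41 on HFD, from 4.80 to 7.33 CPM and from 5.56 to 7.38 CPM, whereas G6pc fell on HFD. The G6pc3 call on CD was kept in every fit. That on HFD (adjusted p = 0.0415) was lost in 10 of 16 fits without a library and with no count filter. Creb3 rose by 0.45 and Crtc1 by 0.28.

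Creb3l2 fell with fasting on CD, where Creb3l3 rose. It had 37.9 to 59.0 CPM in CD fed livers, 16.2 to 24.5 CPM in CD fasted, 17.6 to 19.3 CPM in HFD fed and 16.3 to 27.5 CPM in HFD fasted livers, so the CD fed group stood above the other 3. The fasting change on CD was -1.22 (SE 0.18), and the gene was lower by 1.37 on HFD in fed mice (SE 0.18), and it had an interaction of 1.38 (SE 0.25, adjusted p = 0.0152). Fbp2 had an interaction of -2.40 (adjusted p = 0.0365). Ppargc1b and Pprc1, the relatives of Ppargc1a, and Crtc3 were called in no contrast. Neither were Slc37a1, Slc37a2 and Slc37a3, the relatives of Slc37a4, nor Creb3l1 and Creb3l4.

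Calls of genes outside the 8 members depended on single libraries in many cases: over all lists, 26 of the 43 genes called for fasting on CD kept their call in all 16 fits without a library, 4 of 16 for fasting on HFD, 2 of 5 for diet in fed mice, 4 of 19 for diet in fasted mice and 1 of 6 for the interaction. Those that also kept it in every alternative fit at this threshold were 24, 4, 2, 1 and 1.

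Genes known as targets were read from their own lists. Among 6 genes of fasting or of insulin repression, Cpt1a (1.45 on CD, 0.72 on HFD), the gatekeeper of mitochondrial fatty acid uptake, rose on both diets. Igfbp1 (-3.48) and Irs2 (-1.57) were lower on HFD in fasted mice, but without the second CD fasted library the values were -1.83 (adjusted p = 0.0904) and -1.11 (adjusted p = 0.120). Among 7 targets of Creb3l3, Cidec rose on both diets (4.07, or 4.74 without the third CD fed library, and 2.07), Apoa4 on CD (3.74) and Apcs on HFD (0.98, or 0.58 without the third HFD fasted library), and Apcs was lower on HFD in fed mice (-1.02, adjusted p = 0.0195). The Apcs call with fasting was lost in 3 of 16 fits without a library and where only the 8 HFD libraries were fitted. The Cidec call on HFD (adjusted p = 0.0382) was lost in 6 of these 16 fits and with only the HFD libraries. Hamp (-1.45) and Apoa5 (-0.67) were lower on HFD in fasted mice. The Hamp call was kept in every fit. That of Apoa5 (adjusted p = 0.0309) was lost in 5 of 16 fits without a library, under total count scaling and with only the fasted libraries. Fgf21 was not called, with 1.43 on CD (adjusted p = 0.0863) and 1.70 on HFD (adjusted p = 0.0832). The ATF4 list held 10 genes, Atf4 itself and genes downstream of ATF4, the factor that drives Pck2. Of these, Mthfd2 (-1.89) and Chac1 (-1.45) fell with fasting on CD, and Atf4 (-0.44) was lower on HFD in fed mice. With fasting on CD the share called was 33.3% of the 6 fasting genes, 28.6% of the 7 Creb3l3 targets and 20.0% of the 10 ATF4 genes, beside 25.2% of all genes. With fasting on HFD it was 16.7%, 28.6% and 0.0% beside 8.86%, and for HFD in fasted mice 33.3%, 28.6% and 0.0% beside 7.70%.

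By Pearson correlation of log2 CPM over the 16 libraries, the genes most like each member were sought among 12095 candidates with a mean of at least 1 CPM. Pck1 was nearest to Tat (r = 0.91), Ppt2 and Crcp (both 0.91), G6pc to Ppp1r15a (0.89), Cyc1 and Rnf103, and Fbp1 to Cth (0.93), Fh1 and Pabpc4. Creb3l3 was nearest to Grina (0.97), Bfar and Retsat, Ppargc1a to Tmem53 (0.89), Arl13b and Mknk2, Slc37a4 to Klc4 (0.90), Acot7 and Tpbgl, Crtc2 to Hpd (0.88), Ahcy and Smap2, and Pck2 to Pak1 (0.92), Heg1 and P3h3. Taken as deviations from the group means, Pck1 with Tat had r = 0.81, Ppargc1a with Tmem53 0.90 and Creb3l3 with Grina 0.91. The libraries share their groups and, within a group, each library's depth and tissue composition, so these values are descriptions.

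In whole liver, fewer cells of a type and less RNA per cell cannot be told apart, and the following levels were read beside the members. Total counts ranged from 41364448 to 57583153 per library, and the lowest member count was 124 (Pck2). A detection floor of 3 counts, for counting error only, was at most 0.0725 CPM over these total counts, without TMM scaling. Hepatocyte markers (6 genes) summed to 93608 to 116310 CPM in CD fasted and 77757 to 107870 CPM in HFD fasted livers. None was called between these groups by edgeR, beside 7.70% of all genes. At an unadjusted p under 0.05 there were 2 of the 6, beside 3905 of all 15075 tested genes. Endothelial markers summed to 147 to 194 CPM in CD fasted and 179 to 236 CPM in HFD fasted livers, with 2 of 5 called higher on HFD, and stellate markers to 120 to 202 CPM and 211 to 366 CPM, with 1 of 5 called higher, beside 3.05% of all genes. Adipocyte markers summed to 7.42 to 94.8 CPM in HFD fasted livers and to at most 12.9 CPM elsewhere, mostly Cfd and Cidea. Adipoq averaged 0.163 CPM in HFD fed and 0.292 CPM in HFD fasted livers, with highest libraries of 0.525 and 0.976 CPM. Plin1 averaged 0.110 CPM in HFD fed and 0.070 CPM in HFD fasted livers. Lep averaged 0.015 and 0.201 CPM there, with a highest HFD fasted library of 0.781 CPM, and was 0 in all CD libraries. Cfd was called higher with fasting on HFD (3.78, adjusted p = 0.0258), but had 2.04 without the second HFD fasted library (adjusted p = 0.101). The summed adipocyte markers were 94.8 and 60.2 CPM in HFD fasted replicates 2 and 3, which had the lowest Pck1 (1848 and 1503 CPM), against 7.42 and 8.62 CPM in the other two. G6pc was lowest in replicate 4 (91.0 CPM), whose adipocyte markers summed to 8.62 CPM. Of 6 periportal genes, which mark the zone where gluconeogenesis is most active, 1 was lower on HFD in fasted mice (Hal, -0.73), beside 4.65% of all genes, none of the 6 had a positive value, and their median was -0.62. The Hal call (adjusted p = 0.0461) was lost in 13 of 16 fits without a library, under total count and upper quartile scaling, and where only the 8 fasted libraries were fitted. With fasting on HFD, where Pck1, G6pc and Slc37a4 fell, none of the 6 was positive either, with a median of -0.53. Of these, 1 was called lower, beside 4.07% of all genes. It was Sds, which is also counted among the genes of carbon entry above, so this is not a separate result. At an unadjusted p under 0.05 there were 4 of the 6, beside 3864 of all 15075 tested genes. In that contrast 5 of 6 pericentral genes, of the zone opposite to the periportal one, were positive, with 1 called, Oat (1.68, adjusted p = 0.000500, kept in every fit), beside 4.78% of all genes called higher, and their sums overlapped, at 5565 to 11011 CPM fed and 8664 to 17856 CPM fasted. With fasting on CD hepatocyte markers summed to 109530 to 145100 CPM fed and 93608 to 116310 CPM fasted, with 1 of 6 called, Ttr (-0.92, adjusted p = 0.00436). Pericentral genes summed to 5514 to 8906 CPM fed and 12678 to 14975 CPM fasted without overlap, with Oat (1.67) and Cyp2e1 (0.75) called higher and Cyp1a2 (-1.62) lower of 6, beside 13.7% and 11.5% of all genes. Of the 6 periportal genes Cyp2f2 fell (-0.67), and their sums overlapped, at 5878 to 7050 CPM fed and 4663 to 7446 CPM fasted. On CD 2 of 6 Kupffer, 2 of 5 endothelial and 1 of 5 stellate markers were called lower, beside 11.5% of all genes, with sums of 98.1 to 164, 147 to 194 and 120 to 202 CPM fasted against 148 to 292, 198 to 223 and 200 to 262 CPM fed. Of 5 erythroid markers 1 was called lower on CD, Alas2 (-1.09, adjusted p = 1.2e-05, kept in every fit). Their sums overlapped, at 199 to 404 CPM fasted and 306 to 402.5 CPM fed. Alas2 also fell with fasting on HFD (-0.38, adjusted p = 0.0366), a call lost in 6 of 16 fits without a library. Cholangiocyte markers, of which none was called and 4 of 5 were positive, summed to 29.7 to 62.3 CPM fasted and 25.96 to 31.0 CPM fed, and adipocyte markers to 7.64 to 12.9 and 1.88 to 8.39 CPM. The part of these levels in the members' changes was not tested.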

How the data were processed

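Raw counts per Ensembl gene, whole and not normalized, were deposited in 1 table with 1 column for each of the 16 libraries; no other column of per-sample values was left. The authors made NEBNext Ultra II libraries from poly(A) RNA, read them from both ends, aligned reads to GRCm38 with TopHat2 2.0.11 and counted genes with featureCounts; CASAVA 1.8.4 is named in the submitters' processing notes. Strand and pair settings of the counting are not given in the sources used here, so Pck2, which shares 53 exon bases with the antisense gene Gm10876, is uncertain to that extent. Replicate libraries differed by far more than sampling noise.

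edgeR 4.0.16 under R 4.3.3 was used: filterByExpr, TMM scaling, 1 coefficient per group over 16 libraries, which left 12 residual degrees of freedom, a common biological variation of 19.2%, quasi-likelihood tests and Benjamini-Hochberg adjustment over 15075 genes with a threshold of 0.05. CPM are TMM-scaled, except for the detection floor, which used total counts. The log2 CPM used a prior count of 2, and FPKM used GENCODE lengths of the principal transcript. Ratios used counts plus 0.5 and exact two-sided permutation tests, adjusted over 16 tests. Promoter sequences are from RefSeq (GRCm38.p6). Scripts were tested on simulated data. Alternatives were DESeq2 1.42.0, limma-voom (limma 3.58.1), other scalings and filters, only the groups compared, a replicate block, a threshold of 0.01 and leaving out each library.

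The 8 members and 19 further lists were chosen with earlier results of these data known. Of 153 genes in those lists, 152 matched a symbol. Named from these lists were genes called in at least 1 contrast, at most 4 per list and contrast by smallest p, with the 5 opposing glycolytic genes, the close paralogues, Gcgr, Foxo1 and Fgf21 whatever their result. Aqp9 and Tat for fasting on HFD and Nr0b2 for fasting on CD fall outside this rule. So do the markers Alb, Apoa1, Adipoq, Plin1, Lep and Cidea. All of these were chosen after their values were seen. Slc25a15 for fasting on CD, named among the calls lost with the replicate block, also falls outside this rule. Results that need 3 of the list genes are not reported here, although totals and adjustments include them; the 3 most correlated genes were taken for each member.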

Additional observations from a re-analysis of the deposited data

Results flagged for a closer look

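G6pc in the first HFD fed library was far from the other 3 of its group, at 331 CPM against 495 to 509 CPM. This was 1 of 44 sets of 4 libraries examined, and chance alone marks about 1 set in 20.

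The fasting change differed between the diets, by the interaction test, for Pck1 (log2 -1.61, adjusted p = 0.0296), and among the other lists for Sds (-1.96), Pklr (1.65), Esrra (-0.92), Fbp2 (-2.40), Creb3l2 (1.38) and the erythroid marker Alas2 (0.71). Of these 7, Creb3l2 was called in all 16 fits that left out a library.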

How the results depend on the processing

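The number of members called with fasting in CD was 5, with 4 by limma-voom, under total count scaling and with no count filter, 3 in a fit of only the 2 groups compared, 1 at a threshold of 0.01 and 1 to 5 when a library was left out. With fasting in HFD it was 3, with 2 under total count scaling, upper quartile scaling and no count filter, 0 at 0.01 and 0 to 3 without a library. For HFD in fasted mice it was 2, with 4 by DESeq2, 1 in the fit of only the 2 groups, 1 at 0.01 and 2 to 4 without a library (4 without the first CD fasted library). For the interaction it was 1, with 2 by DESeq2, 0 at 0.01 and 0 to 1 without a library. Over all genes DESeq2 called 1768 for HFD in fed mice, 1967 for HFD in fasted mice and 1079 for the interaction, and the fit of only the 2 groups called 90 for HFD in fasted mice. The cause of these differences was not tested. Scaling by total counts raised the share of higher genes among those called from 39.6% to 88.1% for HFD in fasted mice, from 43.8% to 68.8% for HFD in fed mice, from 54.0% to 67.6% for fasting in HFD and from 47.4% to 69.5% for the interaction, and lowered it from 54.4% to 44.3% for fasting in CD.

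Of the members' own values, signs turned only where the value was not called, and for the Pck2 interaction in 10 of 25 fits. Under total count scaling these were Slc37a4 (0.0935) and Crtc2 (0.0406) for HFD in fasted mice and Pck2 (0.0593) for the interaction, which was also 0.0230 by limma-voom, 0.0139 with the replicate block and -0.249 to 0.228 without a library. Without a library the effect of HFD ranged from -0.0156 to 0.327 for Pck1 in fed mice and from -0.167 to 0.0277 for Slc37a4 in fasted mice, and that of fasting in HFD from -0.0131 to 0.103 for Crtc2. The fasting differences on HFD of the ratios ranged from -0.0291 to 0.391 for Pck1 to Pklr and from -0.0366 to 0.238 for Fbp1 to Pfkl, each negative without the first HFD fasted library.

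Replicate numbers do not mark a pairing: same-numbered libraries correlated from -0.24 to 0.66 in their deviations from group means, over 0.1 in 8 of 24 pairs, and 5 of 16 libraries correlated best with their own number. Between fed and fasted libraries of the same diet the 4 same-numbered pairs ranged from 0.05 to 0.11 on CD, with 2 over 0.1, and from 0.06 to 0.66 on HFD, with 3 over 0.1 and the fourth pair far above the next (0.12). With the replicate block the number of members called was the same in each contrast: 5 and 3 for fasting on CD and HFD, 0 and 2 for diet in fed and fasted mice, and 1 for the interaction. In the other lists calls lost with the block included those of Slc25a15, Sik2, Chac1 and the Kupffer marker Clec4f for fasting on CD, Tat for fasting on HFD, the endothelial marker Pecam1 for HFD in fasted mice, and Esrra and Fbp2 for the interaction. Every member was above the floor of 3 counts in every library (lowest count 124, Pck2), so with 4 libraries a group the precision was set mainly by the spread between libraries.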
